A study of Mus musculus with 31 samples.

Results

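Mitochondrial ribosomal proteins are the protein part of the ribosome that works inside mitochondria, and 76 of their genes were measured in mouse uterus on 31 arrays. The genes were those whose name on the array is Mrpl or Mrps followed by a number, with the letter a, b or c where there is one. Each gene was represented by its brightest probe, and all 76 were among the 26901 genes tested. They comprise 29 genes named for the small subunit and 47 named for the large subunit. All 76 were well above background on every array, so none entered through a single group.

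Mitochondrial ribosomes translate the few proteins that mitochondrial DNA encodes, all of them core subunits of the respiratory chain and of ATP synthase. Their RNAs come from mitochondrial DNA, but every one of their proteins is encoded in the nucleus, made in the cytosol and imported, so the organelle depends on nuclear transcription for this machinery. Estradiol makes the resting uterus take up water and then grow. Some names mislead on the subunit: in mammals Mrps18a and Mrps30 lie in the large subunit, and Mrps36 is now placed in a dehydrogenase complex of the citric acid cycle.

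The AF2 line was compared as AF2 KO mice and their AF2 WT controls, both on C57BL6/J, and the MISS line as MISS KO mice and their MISS WT controls, both on C57BL6/N. The labels do not describe the mutations; as background, AF2 KO mice make an estrogen receptor α without activation function 2, the surface that recruits coactivators, and MISS KO mice make one that cannot be anchored at the membrane. Both are germline changes, so all cells carry them throughout development. Every mouse had been ovariectomised at 4 weeks of age and was studied 3 weeks later, 6 h after a castor oil injection under the skin that carried 8 µg/kg of 17β-estradiol (E2) or 0 µg/kg (placebo). The groups were AF2 KO E2 with 3 arrays and AF2 KO placebo, AF2 WT E2, AF2 WT placebo, MISS KO E2, MISS KO placebo, MISS WT E2 and MISS WT placebo with 4 each. The labels do not say whether arrays of a group came from separate mice, so p-values measure the spread between these samples.

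Arrays had 75th percentiles between 474.7 and 918.4 intensity units and 61.8 to 77.1% of their probes above background, with 0 saturated spots. The markers of uterus were above background on all arrays for 5 of 5 genes, those of smooth muscle for 7 of 7, of stroma for 8 of 8 and of epithelium for 9 of 9, while 2 of 4 skeletal muscle markers, Ckm and Myh4, did not pass the filter on dim probes and were not tested. In whole tissue, fewer cells of a type and less RNA per cell cannot be told apart. Esr1, the gene altered in both lines, differed by −0.47 ± 0.12 (log2, SE) between AF2 KO and AF2 WT under placebo (limma, adjusted p = 0.0147) and by 0.05 ± 0.12 between MISS KO and MISS WT (adjusted p = 0.96), and the probe checks neither alteration. Levels below are log2 signals relative to the 75th percentile of the array, so a level compares arrays for one probe and not probes with each other. The 4 slides each held 1 array of every group, except slide 2, which lacked AF2 KO E2, and levels are listed in slide order.

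The promoters of genes at both ends of the response are shown first, as the 250 bases before the transcription start in RefSeq on GRCm38.p6. Of the 76 genes, 67 matched. Those without a match were Mrpl54, Mrps28, Mrpl19, Mrpl15, Mrps34, Mrpl4, Mrpl38, Mrps35 and Mrpl13. Their mean E2 changes of both wild types were 1.82, 1.54, 1.34, 1.235, 1.22, 1.12, 1.11, 0.42 and 0.35, and the promoter counts leave them out. Mrps18b, Mrps7, Mrpl12 and Mrpl20 are among the genes with the largest E2 increase, Mrpl24 did not pass the test in any genotype, and Mrpl34 is the gene that fell. Capitals mark matches to 6 motifs, searched on both strands: GCGC and TGCGC with any 1 base between them for NRF1, CACGTG (E-box) for MYC, CCGGAAG for GABPA and other ETS factors, AAGATGGCG for YY1, GGGCGG (GC-box) for SP1, and GGTCA and TGACC with any 3 bases between them for the estrogen receptor. Overlapping matches were kept, which joins the capitals of both.
Mrps18b: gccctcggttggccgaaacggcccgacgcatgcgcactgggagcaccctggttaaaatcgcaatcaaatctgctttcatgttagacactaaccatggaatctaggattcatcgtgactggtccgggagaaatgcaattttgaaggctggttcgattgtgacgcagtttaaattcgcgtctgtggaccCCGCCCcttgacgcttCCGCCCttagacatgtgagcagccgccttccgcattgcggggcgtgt
Mrps7: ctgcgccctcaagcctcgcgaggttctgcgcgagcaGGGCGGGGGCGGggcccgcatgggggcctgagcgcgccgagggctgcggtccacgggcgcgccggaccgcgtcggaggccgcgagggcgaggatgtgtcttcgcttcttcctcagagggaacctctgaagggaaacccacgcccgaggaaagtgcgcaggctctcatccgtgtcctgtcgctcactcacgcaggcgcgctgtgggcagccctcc
Mrpl12: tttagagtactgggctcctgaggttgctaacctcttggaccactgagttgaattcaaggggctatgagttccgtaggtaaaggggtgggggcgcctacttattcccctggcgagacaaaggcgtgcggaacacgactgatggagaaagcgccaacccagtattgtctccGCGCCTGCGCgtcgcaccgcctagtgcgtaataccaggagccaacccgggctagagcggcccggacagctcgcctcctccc
Mrpl20: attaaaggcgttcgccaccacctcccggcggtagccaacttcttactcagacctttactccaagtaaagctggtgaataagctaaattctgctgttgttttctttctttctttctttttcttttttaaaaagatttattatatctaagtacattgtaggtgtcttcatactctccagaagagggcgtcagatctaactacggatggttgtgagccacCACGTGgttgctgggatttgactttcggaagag
Mrpl24: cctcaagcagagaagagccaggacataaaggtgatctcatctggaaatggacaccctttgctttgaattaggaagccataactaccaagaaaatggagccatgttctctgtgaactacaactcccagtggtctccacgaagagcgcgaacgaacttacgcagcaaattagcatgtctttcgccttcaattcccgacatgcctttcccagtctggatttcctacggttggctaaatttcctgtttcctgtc
Mrpl34: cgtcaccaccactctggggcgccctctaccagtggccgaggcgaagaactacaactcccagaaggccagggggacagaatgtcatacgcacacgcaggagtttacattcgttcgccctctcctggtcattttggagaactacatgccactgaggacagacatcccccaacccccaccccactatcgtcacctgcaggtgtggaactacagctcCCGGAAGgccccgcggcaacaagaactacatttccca

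The Mrps18b window lies at chr17:35916441-35916690 on the minus strand, and the others are on the plus strand: Mrps7 at chr11:115603890-115604139, Mrpl12 at chr11:120484387-120484636, Mrpl20 at chr4:155802628-155802877, Mrpl24 at chr3:87919294-87919543 and Mrpl34 at chr8:71464676-71464925. Mrps18b and Mrps7 each held 2 GC-boxes, Mrpl12 held 1 NRF1 motif, Mrpl20 held 1 E-box, Mrpl34 held 1 ETS motif and Mrpl24 held none of the motifs. Among promoters not shown, that of Mrps2, also among the genes with the largest increase, held none of the motifs. That of Mrpl14, which did not pass the test in any genotype, held 4 GC-boxes. The ETS motif was in 16 of the 67 promoters (23.9%), against 7.05% of all 27025 promoters of the table and 11.0% of the 12452 that belong to tested genes. The NRF1 motif was in 9 promoters (13.4%), against 3.86% of all promoters and 6.5% of those of tested genes. The YY1 motif was in 2 promoters (2.99%), against 0.607% of all promoters and 0.867% of those of tested genes. The E-box was in 5 promoters (7.46%), against 6.05% of all promoters and 7.52% of those of tested genes. The GC-box was in 32 promoters (47.8%), against 32.9% of all promoters and 51.6% of those of tested genes. No promoter held the estrogen receptor motif, which was in 0.0629% of all promoters and 0.0402% of those of tested genes. The mean E2 change of both wild types had a median of 1.03 in the genes with an ETS motif, against 0.72 in the genes without one, and of 0.63 in the genes with an NRF1 motif, against 0.77 in those without. It was 0.84 with an E-box, against 0.73 without, 0.90 with a YY1 motif (2 genes), against 0.73, and 0.75 with a GC-box, against 0.73. None of these differences was tested. A match describes letters and not binding, and no match says only that the letters are not in the window.

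E2 raised most mitochondrial ribosomal protein genes within 6 h in AF2 WT, MISS KO and MISS WT uterus, and none passed the test in AF2 KO uterus as scaled here. A gene was called at a limma adjusted p under 0.05 over all 26901 genes. In AF2 WT, 67 of 76 were called (57.6% of all genes), 66 of them higher with E2 (27.6% of all genes) and 1 lower (30.0% of all genes), with a median log2 change of 0.66, against −0.06 for all genes. In MISS KO, 69 were called (57.3% of all genes), 68 of them higher (30.1% of all genes) and 1 lower (27.2% of all genes), with a median of 0.82, against 0.03. In MISS WT, 71 were called (62.3% of all genes), 70 of them higher (35.1% of all genes) and 1 lower (27.1% of all genes), with a median of 0.90, against 0.16. The same 65 genes were higher in all 3 genotypes, and Mrpl14, Mrpl23, Mrpl24 and Mrps33 were called in none of them. All E2 arrays lay above all placebo arrays for 54 genes in AF2 WT (24.0% of all genes), 67 in MISS KO (28.0% of all genes) and 68 in MISS WT (31.2% of all genes), and below them for 1 gene in each (25.6, 25.1 and 23.6% of all genes).

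In AF2 KO, 0 of 76 were called (3.69% of all genes), with 0 higher (3.13% of all genes) and 0 lower (0.558% of all genes) by limma. The lowest change was that of Mrps11, at −0.27 ± 0.08 (SE, adjusted p = 0.0516), and it was −0.32, −0.23 and −0.30 within the 3 slides. Quantile normalization called Mrps11 lower (−0.28, adjusted p = 0.0488; 0.684% of all genes), and blocking on slide called Mrps11 and Mrps30 lower (2.30% of all genes). An unadjusted p under 0.05 was found for 10, and changes lay between −0.27 and 0.16. The 95% confidence interval of the change lay within 0.5 log2 units of 0 for 74 of the 76 genes. The median was −0.07, against 0.04 for all genes. All E2 arrays lay below all placebo arrays for 10 genes (6.31% of all genes) and above them for 0 (10.3% of all genes).

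**Figure D1:**
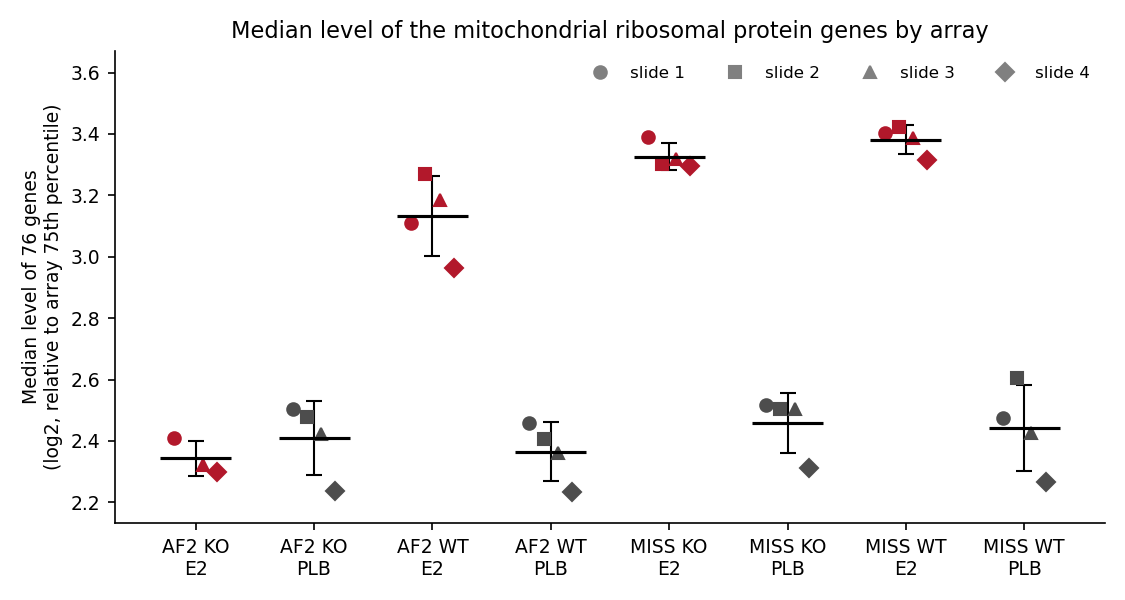
Median log2 level of the 76 genes on each array, with the group mean (line) and SD (bar) and a marker for each slide. E2 arrays of AF2 WT, MISS KO and MISS WT lie at 2.96 to 3.42, above every other array, and the AF2 KO E2 arrays lie at 2.30 to 2.41, among the placebo arrays.

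The median level of the 76 genes was 2.41, 2.32 and 2.30 on the AF2 KO E2 arrays, against 2.50, 2.48, 2.42 and 2.24 on the AF2 KO placebo arrays. It was 3.11, 3.27, 3.19 and 2.96 on the AF2 WT E2 arrays, against 2.46, 2.41, 2.36 and 2.23 on the AF2 WT placebo arrays. The groups overlapped in AF2 KO and lay apart in AF2 WT. The medians were 3.39, 3.30, 3.32 and 3.29 on MISS KO E2 arrays, against 2.52, 2.50, 2.50 and 2.31 on MISS KO placebo arrays. They were 3.40, 3.42, 3.39 and 3.31 on MISS WT E2 arrays, against 2.48, 2.60, 2.42 and 2.27 on MISS WT placebo arrays. The array on slide 4 was the lowest of its group in all 8 groups. Within slides, the median change was 0.68, 0.82, 0.71 and 0.58 in AF2 WT, 0.83, 0.74, 0.77 and 0.85 in MISS KO, 0.92, 0.89, 0.82 and 0.95 in MISS WT, and −0.06, −0.06 and −0.02 on the 3 slides that held AF2 KO E2. Without slide 4 the counts of genes higher and lower were 68 and 1 in AF2 WT, 67 and 1 in MISS KO, 68 and 1 in MISS WT, and 0 and 0 in AF2 KO. The shares of all genes called without slide 4 are not set beside them.

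The size of the increase depends on how arrays are scaled. With quantile normalization the median change was 0.43 in AF2 WT, 0.49 in MISS KO and 0.56 in MISS WT, with 51 genes higher and 6 lower in AF2 WT (28.1 and 31.1% of all genes), 57 and 6 in MISS KO (28.4 and 29.7%), and 57 and 9 in MISS WT (31.4 and 31.6%). The genes lower in AF2 WT under that scaling were Mrpl14, Mrpl24, Mrpl30, Mrpl34, Mrps21 and Mrps33. All 51, 57 and 57 genes higher under quantile normalization were also higher as scaled here, and the median change of all genes was −0.02 in AF2 WT, 0.03 in MISS KO and 0.06 in MISS WT.

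**Figure D2:**
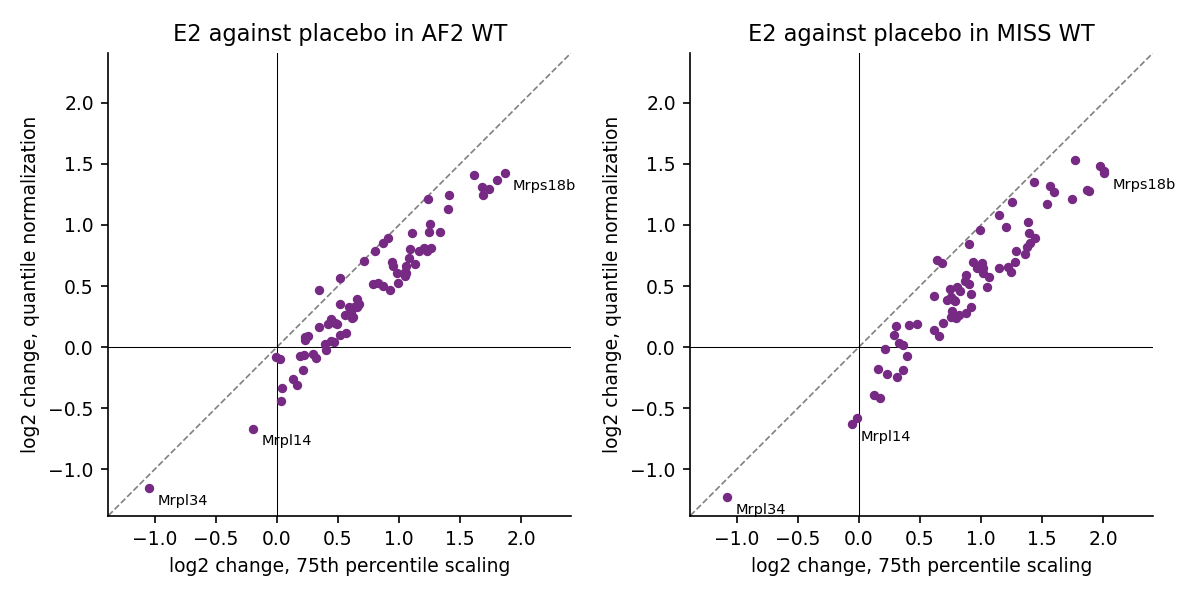
Log2 change with E2 for the 76 genes in AF2 WT (left) and MISS WT (right), with 75th percentile scaling on the horizontal axis and quantile normalization on the vertical axis. The dashed line marks equal values; the median shift is −0.32 in AF2 WT and −0.40 in MISS WT (log2), and Mrpl34 is lowest under both.

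Genes split by name, Mrps or Mrpl, are given by count, with no test of the split. In AF2 WT, 26 of 29 genes named Mrps were higher and 0 lower, with a median change of 0.71, and 40 of 47 genes named Mrpl were higher and 1 lower, with a median of 0.62. In MISS WT, 28 of 29 genes named Mrps were higher, with a median of 0.93, and 42 of 47 genes named Mrpl were higher and 1 lower, with a median of 0.87. Of 44 genes listed here as having a counterpart in bacterial ribosomes 38 were higher in AF2 WT and 1 lower, and of the 32 listed without one 28 were higher and 0 lower. The list places Mrps24 and Mrpl47 among the 32, and it was not checked against other classifications.

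**Figure D3:**
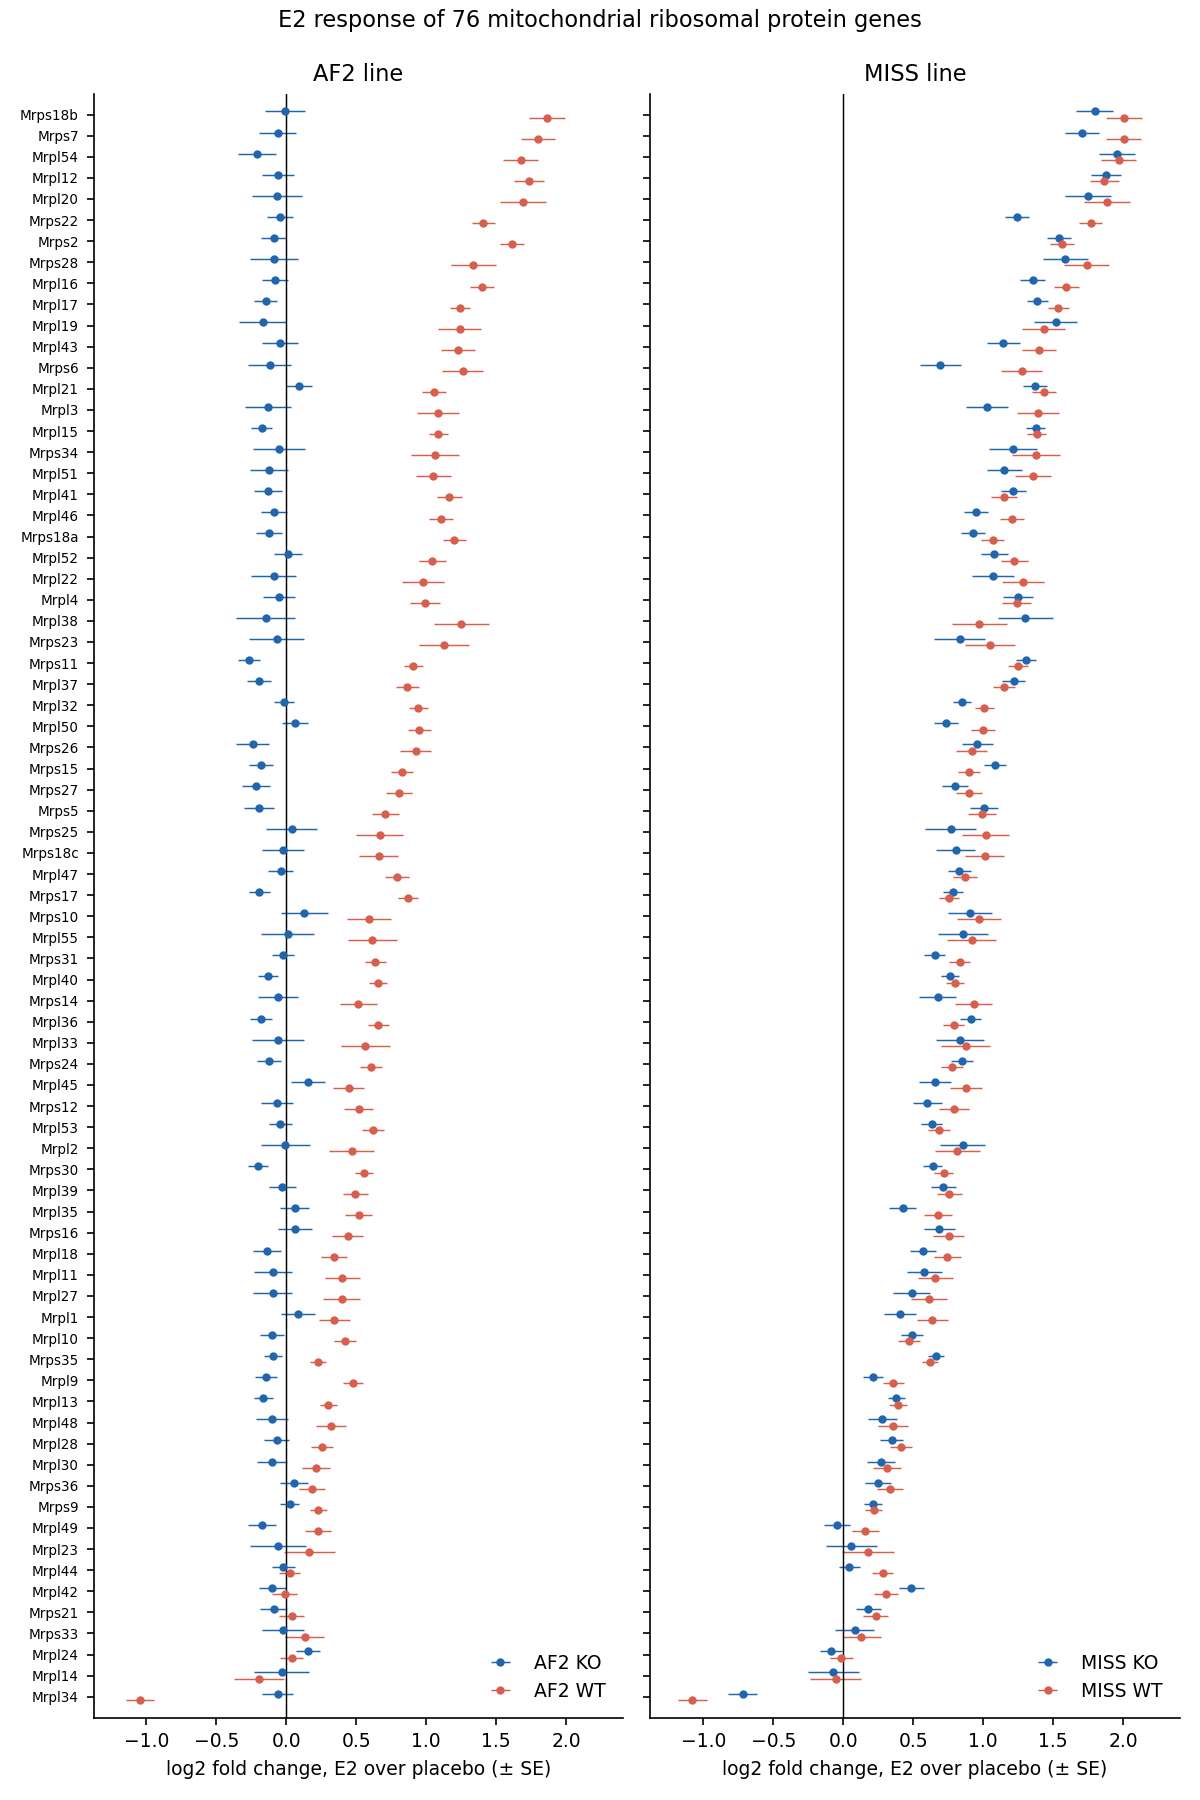
Log2 change with E2 ± SE for each of the 76 genes, ordered by the mean of both wild types, with AF2 KO and AF2 WT on the left and MISS KO and MISS WT on the right. AF2 KO changes lie between −0.27 and 0.16, AF2 WT changes between −1.04 and 1.86, and Mrpl34 at the foot is the gene that was lower in AF2 WT, MISS KO and MISS WT.

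Mrps18b, 1 of 3 mammalian paralogs of bacterial ribosomal protein S18, had the largest mean increase of both wild types among the brightest probes. Its level was 5.28, 5.39, 5.33 and 5.03 in AF2 WT E2 arrays, against 3.56, 3.27, 3.35 and 3.38 in AF2 WT placebo arrays. In MISS WT it was 5.50, 5.31, 5.15 and 5.03 in MISS WT E2 arrays, against 3.46, 3.24, 3.17 and 3.09 in MISS WT placebo arrays. E2 arrays were more than 1 log2 unit above placebo arrays in both lines, with no overlap. The level was 5.27, 5.22, 4.98 and 5.12 in MISS KO E2 arrays, against 3.48, 3.43, 3.41 and 3.09 in MISS KO placebo arrays, again without overlap. In AF2 KO it was 3.53, 3.12 and 3.02 in AF2 KO E2 arrays, against 3.30, 3.52, 3.07 and 3.03 in AF2 KO placebo arrays, and the groups overlapped. The fold change was 3.64 in AF2 WT (log2 1.86 ± 0.13, SE, limma adjusted p = 2.72e-12), 3.47 in MISS KO, 4.02 in MISS WT and 0.99 in AF2 KO (log2 −0.01 ± 0.14, adjusted p = 0.985). Its other 2 probes gave 1.86 and 1.89 in AF2 WT. A dimmer probe of Mrpl9 rose by more, 2.18 in AF2 WT and 2.41 in MISS WT.

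The other paralogs rose less. Mrps18a, which sits in the large subunit, had levels of 4.05, 4.23, 4.21 and 3.96 in AF2 WT E2 arrays, against 3.00, 2.88, 2.84 and 2.93 in AF2 WT placebo arrays. Mrps18a was 4.22, 4.11, 4.10 and 3.85 in MISS WT E2 arrays, against 3.06, 2.94, 3.10 and 2.92 in MISS WT placebo arrays. Every E2 array was above every placebo array in both wild types. Its log2 change was 1.20 ± 0.08 (SE) in AF2 WT, 0.93 in MISS KO, 1.07 in MISS WT and −0.12 ± 0.09 in AF2 KO, where it was not called (limma adjusted p = 0.535). In MISS KO the Mrps18a arrays were 3.90, 3.93, 3.70 and 3.95 in MISS KO E2 arrays, against 3.01, 2.93, 2.90 and 2.92 in MISS KO placebo arrays, and in AF2 KO they were 2.99, 2.83 and 2.83 in AF2 KO E2 arrays, against 3.05, 3.15, 2.90 and 2.94 in AF2 KO placebo arrays. The MISS KO groups lay apart and the AF2 KO groups overlapped.

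Mrps18c, the paralog at the site of bacterial S18, had levels of 3.10, 3.07, 3.11 and 2.61 in AF2 WT E2 arrays, against 2.33, 2.44, 2.43 and 2.05 in AF2 WT placebo arrays. In MISS WT, Mrps18c was 3.54, 3.53, 3.49 and 3.33 in MISS WT E2 arrays, against 2.52, 2.64, 2.50 and 2.18 in MISS WT placebo arrays. No groups overlapped, and slide 4 held the lowest array of each. The log2 change was 0.66 ± 0.14 (SE) in AF2 WT (limma adjusted p = 0.000178), 0.80 in MISS KO, 1.01 in MISS WT and −0.02 ± 0.15 in AF2 KO (adjusted p = 0.968). Mrps18c was 3.45, 3.36, 3.34 and 2.85 in MISS KO E2 arrays, against 2.54, 2.54, 2.52 and 2.19 in MISS KO placebo arrays, and 2.46, 2.40 and 2.23 in AF2 KO E2 arrays, against 2.50, 2.48, 2.46 and 2.10 in AF2 KO placebo arrays. The MISS KO groups did not overlap, and the AF2 KO groups did. The AF2 WT order of these paralogs, by change, was Mrps18b, Mrps18a and Mrps18c, while in MISS WT the changes of Mrps18a and Mrps18c, 1.07 ± 0.08 and 1.01 ± 0.14 (SE), lay within their errors.

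Mrps7, the counterpart of bacterial S7 in the head of the small subunit, had levels of 5.15, 5.11, 5.03 and 4.73 in AF2 WT E2 arrays, against 3.35, 3.25, 3.17 and 3.07 in AF2 WT placebo arrays. In MISS WT, Mrps7 was 5.38, 5.27, 5.09 and 4.87 in MISS WT E2 arrays, against 3.24, 3.32, 3.06 and 2.96 in MISS WT placebo arrays. The groups lay far apart in both lines. The log2 change was 1.80 ± 0.12 (SE) in AF2 WT (limma adjusted p = 1.64e-12), 1.71 in MISS KO and 2.005, a 4.01-fold increase, in MISS WT. The other probe of Mrps7 rose less, by 1.54 in AF2 WT, 0.89 in MISS KO and 1.17 in MISS WT. Mrps7 was 5.11, 5.09, 4.73 and 4.71 in MISS KO E2 arrays, against 3.33, 3.27, 3.11 and 3.10 in MISS KO placebo arrays, and 3.34, 3.07 and 3.02 in AF2 KO E2 arrays, against 3.28, 3.34, 3.16 and 3.04 in AF2 KO placebo arrays. MISS KO arrays with E2 were all higher than those with placebo, and AF2 KO arrays overlapped, with a change of −0.06 ± 0.13 (adjusted p = 0.884). Mrps2, the counterpart of bacterial S2, rose by 1.61 ± 0.08 in AF2 WT and 1.56 ± 0.08 in MISS WT. The other probe of Mrps2 rose by 0.98 in AF2 WT and 1.67 in MISS WT.

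Mrpl54, a protein of the large subunit with no bacterial counterpart, had levels of 4.15, 4.06, 4.04 and 3.73 in AF2 WT E2 arrays, against 2.48, 2.38, 2.24 and 2.18 in AF2 WT placebo arrays. In MISS WT, Mrpl54 was 4.45, 4.47, 4.27 and 3.94 in MISS WT E2 arrays, against 2.17, 2.57, 2.28 and 2.23 in MISS WT placebo arrays. The groups were apart by more than 1 log2 unit. Its log2 change was 1.68 ± 0.13 (SE) in AF2 WT (limma adjusted p = 1.04e-11), 1.96 in MISS KO and 1.97 in MISS WT. Mrpl54 was 4.24, 4.33, 4.01 and 4.12 in MISS KO E2 arrays, against 2.48, 2.22, 2.15 and 2.04 in MISS KO placebo arrays, and 2.20, 2.08 and 1.87 in AF2 KO E2 arrays, against 2.22, 2.48, 2.20 and 2.15 in AF2 KO placebo arrays. The MISS KO groups did not overlap; in AF2 KO 1 of 3 E2 arrays lay inside the placebo range, with a change of −0.21 ± 0.14 (adjusted p = 0.47).

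Mrpl12, the stalk protein that recruits translation factors and also binds the mitochondrial RNA polymerase, had levels of 5.20, 5.43, 5.18 and 4.96 in AF2 WT E2 arrays, against 3.64, 3.39, 3.42 and 3.37 in AF2 WT placebo arrays. In MISS WT, Mrpl12 was 5.34, 5.34, 5.12 and 5.13 in MISS WT E2 arrays, against 3.31, 3.49, 3.37 and 3.29 in MISS WT placebo arrays. All E2 arrays were above all placebo arrays. The log2 change was 1.74 ± 0.11 (SE) in AF2 WT (limma adjusted p = 2.22e-13), 1.88 in MISS KO and 1.87 in MISS WT. Mrpl12 was 5.32, 5.30, 5.0 and 5.22 in MISS KO E2 arrays, against 3.52, 3.34, 3.25 and 3.20 in MISS KO placebo arrays, and 3.39, 3.28 and 3.08 in AF2 KO E2 arrays, against 3.38, 3.51, 3.20 and 3.15 in AF2 KO placebo arrays. The MISS KO groups lay apart, and the AF2 KO groups overlapped, with a change of −0.06 ± 0.12 (adjusted p = 0.871). Mrpl20, the counterpart of bacterial L20, rose by 1.69 ± 0.17 in AF2 WT and 1.88 ± 0.17 in MISS WT.

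**Figure D4:**
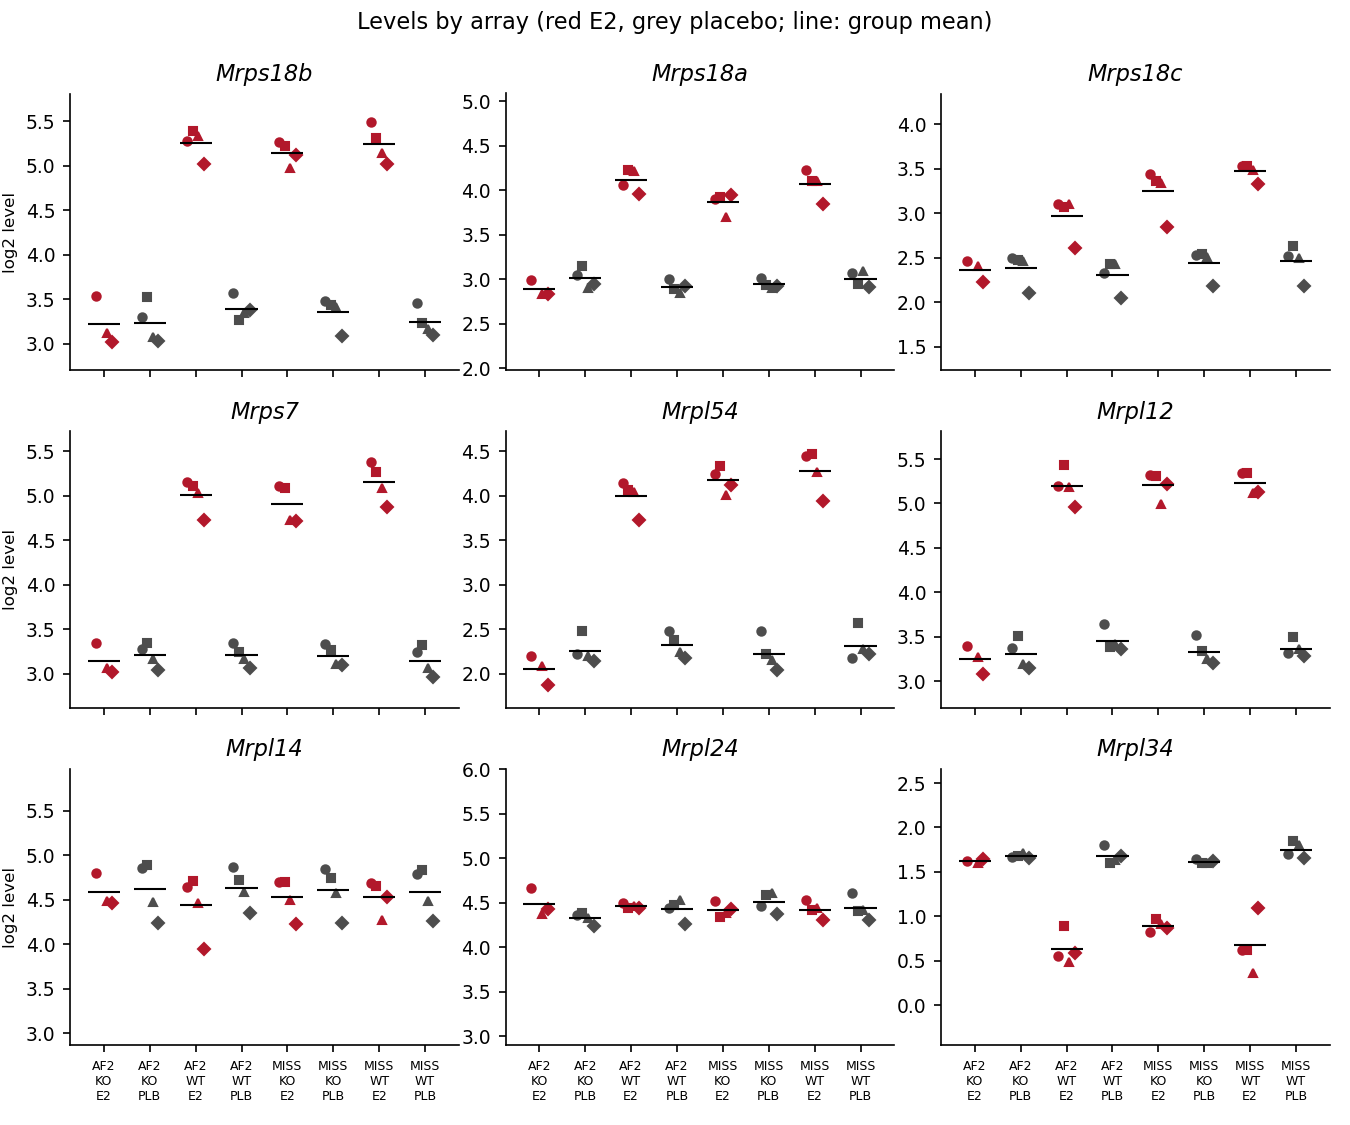
Log2 level of 9 genes on every array, with E2 in red, placebo in grey, a line at the group mean and circle, square, triangle and diamond for slides 1 to 4; all panels span the same number of log2 units. Mrps18b, Mrps7, Mrpl54 and Mrpl12 stand at least 1 unit higher with E2 in AF2 WT, MISS KO and MISS WT, Mrpl14 and Mrpl24 overlap with placebo, and Mrpl34 stands lower.

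Mrpl34, the counterpart of bacterial L34, fell with E2 in AF2 WT, MISS KO and MISS WT. Its level was 0.55, 0.90, 0.49 and 0.59 in AF2 WT E2 arrays, against 1.80, 1.60, 1.63 and 1.67 in AF2 WT placebo arrays. In MISS WT, Mrpl34 was 0.62, 0.62, 0.36 and 1.09 in MISS WT E2 arrays, against 1.70, 1.85, 1.80 and 1.65 in MISS WT placebo arrays. Every E2 array was below every placebo array in both lines. The log2 change was −1.04 ± 0.10 (SE) in AF2 WT (fold 0.485, limma adjusted p = 1.6e-09), −0.72 ± 0.10 in MISS KO and −1.08 ± 0.10 in MISS WT. Mrpl34 was 0.82, 0.98, 0.91 and 0.87 in MISS KO E2 arrays, against 1.64, 1.60, 1.60 and 1.62 in MISS KO placebo arrays, and 1.62, 1.60 and 1.64 in AF2 KO E2 arrays, against 1.67, 1.68, 1.71 and 1.66 in AF2 KO placebo arrays. The MISS KO groups lay apart. The AF2 KO E2 arrays were also all below the placebo arrays, with a change of −0.06 ± 0.11 (adjusted p = 0.858).

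Mrpl14 and Mrpl24 are counterparts of bacterial proteins of the large subunit, and neither was called with E2. Mrpl14 was 4.65, 4.71, 4.46 and 3.95 in AF2 WT E2 arrays, against 4.87, 4.72, 4.59 and 4.36 in AF2 WT placebo arrays, and 4.69, 4.65, 4.27 and 4.53 in MISS WT E2 arrays, against 4.79, 4.84, 4.49 and 4.26 in MISS WT placebo arrays. The groups overlapped in both lines, and the log2 change was −0.19 ± 0.18 (SE) in AF2 WT (limma adjusted p = 0.378) and −0.05 ± 0.18 in MISS WT. Mrpl14 was 4.71, 4.70, 4.50 and 4.23 in MISS KO E2 arrays, against 4.85, 4.75, 4.58 and 4.24 in MISS KO placebo arrays, and 4.80, 4.49 and 4.46 in AF2 KO E2 arrays, against 4.86, 4.89, 4.47 and 4.24 in AF2 KO placebo arrays, overlapping in both. Mrpl24 was 4.50, 4.44, 4.47 and 4.44 in AF2 WT E2 arrays, against 4.44, 4.47, 4.53 and 4.26 in AF2 WT placebo arrays, and 4.53, 4.41, 4.44 and 4.31 in MISS WT E2 arrays, against 4.61, 4.40, 4.42 and 4.31 in MISS WT placebo arrays. These also overlapped, with changes of 0.04 ± 0.08 (adjusted p = 0.719) and −0.01 ± 0.08. Mrpl24 was 4.52, 4.33, 4.39 and 4.43 in MISS KO E2 arrays, against 4.46, 4.58, 4.61 and 4.37 in MISS KO placebo arrays, and 4.66, 4.37 and 4.42 in AF2 KO E2 arrays, against 4.36, 4.39, 4.33 and 4.24 in AF2 KO placebo arrays, overlapping in both. With quantile normalization both genes were called lower in AF2 WT, at −0.67 for Mrpl14 and −0.44 for Mrpl24.

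The low end also held 3 genes with small changes. Mrps33, a small subunit protein without a bacterial counterpart, changed by 0.13 ± 0.14 (SE) in AF2 WT and 0.13 ± 0.14 in MISS WT and was not called. Mrps21, the counterpart of bacterial S21, changed by 0.04 ± 0.09 in AF2 WT and rose by 0.23 ± 0.09 in MISS WT (limma adjusted p = 0.0277), a call lost without replicate 4 of MISS WT placebo (0.13, adjusted p = 0.174), and also without replicate 3 or 4 of MISS WT E2 or without slide 4 (0.11, adjusted p = 0.271). Mrpl42 changed by −0.01 ± 0.09 in AF2 WT and rose by 0.31 ± 0.09 in MISS WT (adjusted p = 0.00398). The Mrpl42 change in MISS WT was 0.18 with quantile normalization and was not called (limma adjusted p = 0.0823). With quantile normalization Mrps33 and Mrps21 turned negative in both wild types, at −0.26 and −0.33 in AF2 WT and −0.39 and −0.22 in MISS WT.

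The AF2 KO response was lower than the AF2 WT response for most genes. The difference of the responses, KO minus WT, was called for 60 of 76 genes (52.0% of all genes), negative for 59 (23.0% of all genes) and positive for 1 (29.0% of all genes), with a median of −0.77, against 0.18 for all genes. It was −1.87 ± 0.19 (SE) for Mrps18b, −1.86 ± 0.18 for Mrps7, −1.80 ± 0.16 for Mrpl12, −1.75 ± 0.24 for Mrpl20 and −1.70 ± 0.12 for Mrps2. The largest was −1.88 ± 0.19 for Mrpl54 (limma adjusted p = 4.54e-09). The smallest was −0.05 ± 0.11 for Mrpl44, whose fold resembles an RNA-cleaving enzyme, and it was not called. The positive gene was Mrpl34, at 0.98 ± 0.15 (adjusted p = 4.98e-06). Within slides 1, 3 and 4 the median was −0.80, −0.82 and −0.68. With quantile normalization the median was −0.50, with 45 genes negative and 3 positive. The shares of all genes called under that scaling are not set beside these counts.

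The MISS KO response could be told apart from the MISS WT response for 1 gene of 76. Of all genes, 0.903% were called. The difference was negative for Mrps22, a mitochondrion-specific protein of the small subunit (0.658% of all genes), and positive for 0 genes (0.245% of all genes), with 6 genes at an unadjusted p under 0.05 by limma and a median of −0.08, against −0.07 for all genes. For 46 genes the difference had a 95% interval inside 0.5 log2 units of 0, and for 75 inside 1 unit. Mrps6 had the largest difference, −0.58, with a rise of 0.69 in MISS KO against 1.28 in MISS WT, and was not called as scaled here. Mrps22 rose by 1.24 ± 0.08 (SE) in MISS KO, against 1.77 ± 0.08 in MISS WT, a difference of −0.52 ± 0.12 (adjusted p = 0.0266). The difference was −0.42, −0.70, −0.45 and −0.52 within slides 1 to 4. The call was lost without any 1 of 8 arrays, which were MISS KO E2 replicates 2 and 4, MISS KO placebo replicates 1, 2 and 3, MISS WT E2 replicates 1 and 3 and MISS WT placebo replicate 1, at adjusted p of 0.0514 to 0.0712, and also with normexp (−0.42, adjusted p = 0.0515) and with the series matrix (−0.41, adjusted p = 0.107). Blocking on slide gave 5 genes called negative, Mrpl3, Mrpl50, Mrps22, Mrps6 and Mrps7. The share of all genes called with that block is not set beside this count, so no result about these genes is read from it.

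The wild types of both lines responded in a like order. Across the 76 genes the change in MISS WT correlated with that in AF2 WT at Pearson's r = 0.958 and Spearman's rho = 0.951, against r = 0.844 across all genes, and 74 of 76 genes had the same sign. These points share arrays within each line, so the correlation is a description across genes. MISS WT minus AF2 WT was called for 3 genes (9.48% of all genes), positive for 3 (6.38% of all genes) and negative for 0 (3.10% of all genes), with a median of 0.19, against 0.11 for all genes, and 13 genes had an unadjusted p under 0.05 by limma. The 3 genes were Mrps35 at 0.39 ± 0.08 (SE), Mrps11, the counterpart of bacterial S11, at 0.34 ± 0.10, and Mrpl21, the counterpart of bacterial L21, at 0.38 ± 0.12 (adjusted p = 0.00275, 0.0299 and 0.0438). Leaving out each of 16 arrays in turn ended the call of Mrps11 in 7 cases, of Mrpl21 in 11 and of Mrps35 in 0. Blocking on slide gave 22 genes called positive, where 15.5% of all genes were. Leaving out 1 array gave 1 to 6 genes, with 1 gene without AF2 WT placebo replicate 1, AF2 WT E2 replicate 1 or MISS WT placebo replicate 4 and 6 without AF2 WT E2 replicate 2. The lines differ in genetic background, so strain and line cannot be told apart.

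Without hormone the genotypes were close for nearly all the genes. In AF2 KO against AF2 WT under placebo, 2 genes were called (9.06% of all genes), 2 higher (3.38% of all genes) and 0 lower (5.68% of all genes), by limma, with 5 at an unadjusted p under 0.05. They were Mrpl40, a protein of the large subunit, at 0.32 ± 0.07 (SE, adjusted p = 0.00173), and Mrps6, the counterpart of bacterial S6, at 0.68 ± 0.14 (adjusted p = 0.00289). In MISS KO against MISS WT, 0 genes were called (0.892% of all genes), 0 higher (0.420% of all genes) and 0 lower (0.472% of all genes) by limma, with 5 at an unadjusted p under 0.05, and the interval lay within 0.5 units for 75 genes. In MISS WT against AF2 WT, 1 gene was called (11.7% of all genes), 1 higher (3.04% of all genes) and 0 lower (8.62% of all genes), and 4 had an unadjusted p under 0.05. It was Mrpl32, whose maturation by a membrane protease controls ribosome assembly, at 0.22 ± 0.07 (adjusted p = 0.0273), and the call was lost without AF2 WT placebo replicate 1, 3 or 4 or MISS WT placebo replicate 1, 2 or 3, at adjusted p of 0.054 to 0.0981. Placebo arrays of the groups did not overlap for 4 genes higher (5.53% of all genes) and 0 lower (8.70% of all genes) in AF2 KO against AF2 WT, 1 higher (3.26% of all genes) and 2 lower (2.45% of all genes) in MISS KO against MISS WT, and 3 higher (3.65% of all genes) and 1 lower (8.66% of all genes) in MISS WT against AF2 WT.

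Most other probes of a gene had the sign of its brightest probe, with some differing in call or size. Of the 76 genes, 25 had other tested probes, 29 in all. The sign was that of the brightest probe for 26 in AF2 WT, 25 in MISS KO and 28 in MISS WT. Both were called in the same direction for 21, 20 and 22. The changes differed by more than 0.5 log2 units for 6, 9 and 8. The brightest probe of Mrps25 rose by 0.67 in AF2 WT and 1.02 in MISS WT, and its other probe changed by 0.03 and 0.10. Mrpl39, a large subunit protein, had probes called in opposite directions in MISS WT: its brightest probe rose by 0.76 ± 0.09 (SE, limma adjusted p = 5.23e-08 over 40337 probes), and the other fell by 0.24 on the log2 scale (−0.24 ± 0.10, adjusted p = 0.0476). In MISS KO these probes were also called in opposite directions, at 0.72 ± 0.09 and −0.34 ± 0.10 (adjusted p = 0.00544), and in AF2 WT they changed by 0.49 ± 0.09 and −0.19 ± 0.10. Mrpl9, the counterpart of bacterial L9 and singled out after its values were seen, had a dimmer probe that was called higher in AF2 KO (0.50 ± 0.12, adjusted p = 0.0242) and rose by 2.18 ± 0.12 in AF2 WT, while its brightest probe changed by −0.14 ± 0.08 in AF2 KO and 0.48 ± 0.07 in AF2 WT. Which of the transcripts each probe detects was not tested.

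**Figure D5:**
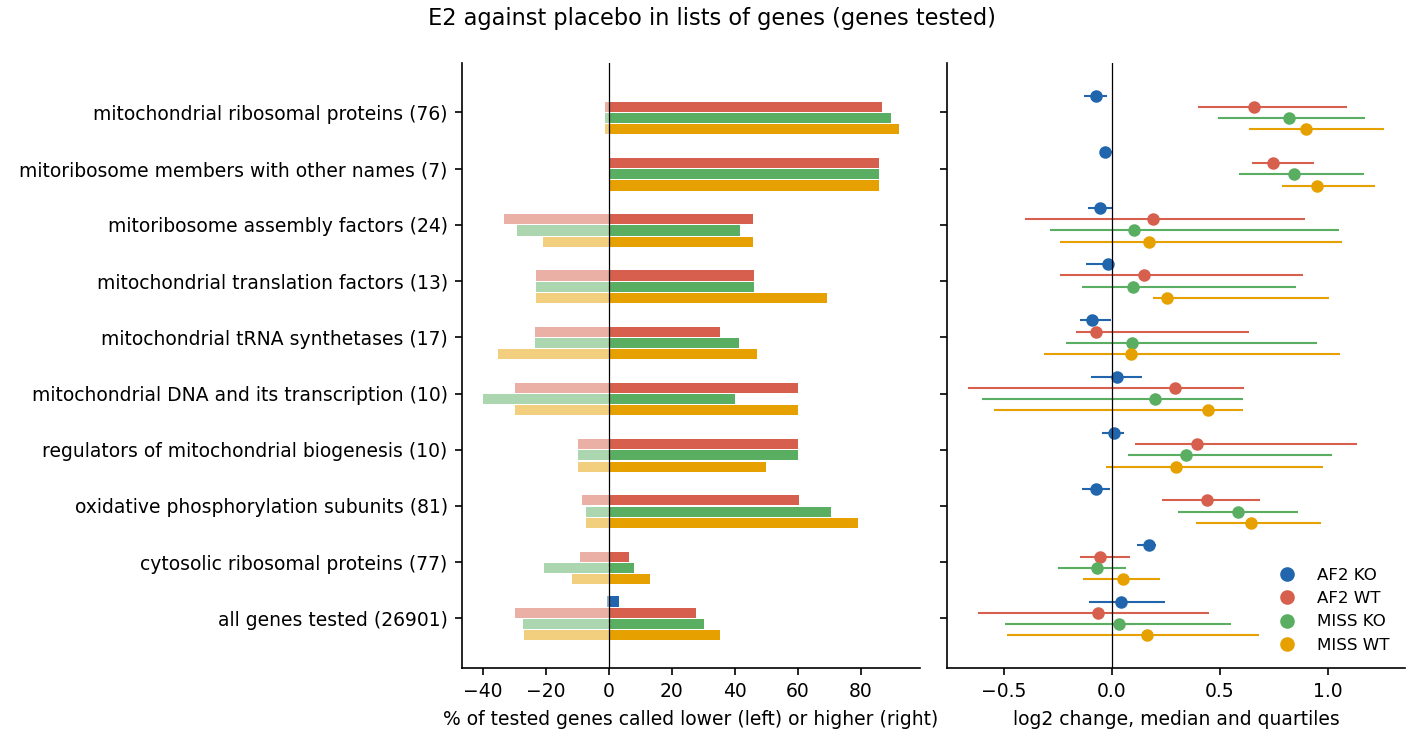
Share of tested genes called lower and higher (left) and median log2 change with quartiles (right) with E2 in AF2 KO, AF2 WT, MISS KO and MISS WT, for 10 lists with the number of genes tested in brackets. Mitochondrial ribosomal proteins have 66 of 76 genes higher in AF2 WT and cytosolic ribosomal proteins 5 of 77.

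Proteins of the mitochondrial ribosome with other names moved alike, and those of the cytosolic ribosome did not. Of 7 with other names, 6 were higher and 0 lower in AF2 WT, with a median of 0.75, and the same counts held in MISS WT, with a median of 0.95. With quantile normalization these were 4 and 1 with a median of 0.34 in AF2 WT, and 5 and 1 with a median of 0.37 in MISS WT. None of the gene function lists had a called gene in AF2 KO. Gadd45gip1, a large subunit protein also known for binding Gadd45 proteins, rose by 1.32 ± 0.13 (SE) in AF2 WT, Chchd1 by 1.03, Mrp63 by 0.84 and Ict1, a hydrolase that frees stalled peptides, by 0.64. Of 77 genes of the cytosolic ribosome, 5 were higher and 7 lower in AF2 WT, with a median of −0.06, and 10 and 9 in MISS WT, with a median of 0.05. With quantile normalization these were 9 higher and 18 lower in AF2 WT, with a median of −0.08, and 18 and 35 in MISS WT, where the median turned negative at −0.10. Rps2 rose by 0.47 ± 0.14 and Rpl15 by 0.34 ± 0.11 in AF2 WT.

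Subunits of oxidative phosphorylation, which use the products of the mitochondrial ribosome, were more often higher than lower, by a smaller median. Of 81 tested, 49 were higher and 7 lower in AF2 WT, with a median of 0.44, and 64 and 6 in MISS WT, with a median of 0.64. With quantile normalization the counts were 26 and 15 in AF2 WT, with a median of 0.06, and 34 and 13 in MISS WT, with a median of 0.19. The largest mean changes of both wild types were those of Cox5a, a subunit of cytochrome c oxidase, with 1.77 ± 0.11 (SE), Atp5g1, of the ATP synthase ring, with 1.70 ± 0.12, Uqcrq, of complex III, with 1.47 and Ndufa11, of complex I, with 1.42, as changes in AF2 WT.

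Factors that build and serve the mitochondrial ribosome split in direction. Of 24 assembly factors, 11 were higher and 8 lower in AF2 WT, with a median of 0.19, and 11 and 5 in MISS WT, with a median of 0.17. With quantile normalization the medians were −0.06 and −0.03. The GTPase Noa1 rose by 1.21 ± 0.13 (SE) in AF2 WT, the RNA methyltransferase Rnmtl1 by 1.39 ± 0.09, Wbscr16 by 1.29 and the helicase Dhx30 by 1.19. Of 13 translation factors, 6 were higher and 3 lower in AF2 WT, and 9 and 3 in MISS WT. The elongation factors Tsfm, Gfm1 and Tufm rose by 1.65 ± 0.22, 1.27 ± 0.09 and 0.89 ± 0.12 in AF2 WT, and Lrpprc, which stabilises mitochondrial mRNA, by 1.11. Of 17 mitochondrial tRNA synthetases, 6 were higher and 4 lower in AF2 WT, and 8 and 6 in MISS WT. With quantile normalization the synthetases were 7 and 8 in AF2 WT and 7 and 5 in MISS WT, and the translation factors 6 and 4 in AF2 WT and 6 and 3 in MISS WT. Yars2, Mars2 and Ears2, for tyrosine, methionine and glutamate, rose by 1.83, 1.65 and 1.15 in AF2 WT.

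Genes of mitochondrial DNA and its transcription, and regulators of mitochondrial growth, held large changes both ways. Of the first 10, 6 were higher and 3 lower in AF2 WT: the RNA polymerase Polrmt rose by 1.23 ± 0.08 (SE) and the packaging factor Tfam by 0.82 ± 0.10, whereas the termination factor family gene Mterfd3 changed by −2.85 ± 0.13 and Polg2, the accessory subunit of the DNA polymerase, by −1.45 ± 0.11. Of 10 regulators, 6 were higher and 1 lower in AF2 WT, and 5 and 1 in MISS WT. Quantile normalization gave 5 regulators higher and 1 lower in AF2 WT, and 4 and 2 in MISS WT. For the genes of mitochondrial DNA and its transcription it gave 4 and 3 in AF2 WT, with a median of −0.01, and 4 and 4 in MISS WT. Pprc1, a growth-regulated coactivator, rose by 2.19 ± 0.10 in AF2 WT and 2.42 in MISS WT, Myc by 1.19 ± 0.10 and 1.68, and Nrf1 by 1.19 ± 0.09 and 0.99. Ppargc1a, a coactivator of the same family, was the one lower, at −3.01 ± 0.19 in AF2 WT, −2.35 in MISS KO and −2.38 in MISS WT. In AF2 KO none of the 4 was called by limma, with changes of 0.26 for Pprc1, 0.16 for Myc, −0.05 for Nrf1 and −0.11 for Ppargc1a. The starting levels were not equal for all 4. Under placebo AF2 KO differed from AF2 WT by −0.49 for Pprc1, −0.55 for Myc, −0.04 for Nrf1 and −0.01 for Ppargc1a. MISS WT differed from AF2 WT under placebo by −0.47 for Pprc1, −0.50 for Myc, −0.005 for Nrf1 and −0.03 for Ppargc1a.

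Cell type markers also moved with E2. The mean level of the 9 epithelium markers was 2.62 to 2.83 on AF2 WT E2 arrays, against 2.09 to 2.32 on AF2 WT placebo arrays, 2.26 to 2.68 on MISS KO E2 arrays, against 1.85 to 2.12 on MISS KO placebo arrays, and 2.57 to 2.72 on MISS WT E2 arrays, against 1.95 to 2.25 on MISS WT placebo arrays. On AF2 KO E2 arrays it was 2.37 to 2.59, against 2.37 to 2.49 on AF2 KO placebo arrays. The groups overlapped in AF2 KO and lay apart in the other genotypes. Without hormone the AF2 KO arrays, at 2.37 to 2.49, already lay above the AF2 WT arrays, at 2.09 to 2.32. Of the 9, 5 were higher and 0 lower in AF2 WT and in MISS KO, and 3 higher and 2 lower in MISS WT, but with quantile normalization the counts were 2 and 1, 3 and 2, and 3 and 5.

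The 6 endothelium markers averaged 1.39 to 1.502 on AF2 WT E2 arrays, against 0.72 to 0.96 on AF2 WT placebo arrays, 1.44 to 1.60 on MISS KO E2 arrays, against 0.90 to 0.98 on MISS KO placebo arrays, and 1.38 to 1.49 on MISS WT E2 arrays, against 0.65 to 1.06 on MISS WT placebo arrays. On AF2 KO E2 arrays they averaged 0.58 to 0.70, against 0.74 to 0.93 on AF2 KO placebo arrays. This level was higher with E2 without overlap in AF2 WT, MISS KO and MISS WT, and lower in AF2 KO. Of the 6, 3 were higher in each of AF2 WT, MISS KO and MISS WT, with 0, 1 and 1 lower, and 1 was lower in AF2 KO. With quantile normalization 3 were again higher in each, with 2, 2 and 1 lower, and 0 were called in AF2 KO.

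The 8 stroma markers averaged 3.09 to 3.42 on AF2 WT E2 arrays, against 4.04 to 4.36 on AF2 WT placebo arrays, with 6 lower and 0 higher, and 3.39 to 4.04 on MISS KO E2 arrays, against 3.94 to 4.22 on MISS KO placebo arrays, with 4 lower and 1 higher. They averaged 3.56 to 3.96 on MISS WT E2 arrays, against 3.93 to 4.69 on MISS WT placebo arrays, with 3 lower and 0 higher, and 3.72 to 4.20 on AF2 KO E2 arrays, against 4.23 to 4.61 on AF2 KO placebo arrays, with 2 lower and 0 higher. The 6 macrophage markers averaged 0.54 to 0.95 on AF2 WT E2 arrays, against 1.11 to 1.55 on AF2 WT placebo arrays, with 3 lower and 1 higher, and had the same counts in MISS KO, with 3 lower and 0 higher in MISS WT and 0 called in AF2 KO. The 7 smooth muscle markers averaged 6.14 to 6.58 on AF2 WT E2 arrays, against 6.09 to 6.52 on AF2 WT placebo arrays, with 0 higher and 1 lower, and 6.19 to 6.53 on MISS KO E2 arrays, against 5.54 to 6.11 on MISS KO placebo arrays, with 4 higher and 1 lower. They averaged 6.33 to 6.74 on MISS WT E2 arrays, against 5.55 to 6.96 on MISS WT placebo arrays, with 5 higher and 1 lower, and 5.51 to 5.97 on AF2 KO E2 arrays, against 5.99 to 6.17 on AF2 KO placebo arrays, with 0 called. The part of these shifts in the results was not tested.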

How the data were processed

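Uterine RNA of 31 samples was hybridised to 1-colour Agilent arrays. Per the file headers, Agilent Feature Extraction 10.10.1.1 gave the deposited intensity of each spot, background-subtracted and detrended, not normalized between arrays. The authors also deposited a log2 value table, used as an alternative. Its median was 7.56 in every column and its correlation with the same array's intensity (log2) was 0.979 to 0.989, so its scale and direction match the scanner values and its columns share 1 centre, and the normalization is not given in the sources used here. Per the submitters' processing notes limma was also used, without a version.

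Outlier spots were dropped, log2 values were averaged per probe and each array's 75th percentile was subtracted. Testing took the 40337 of 55681 probes that some group had well above background on all its arrays, and kept the brightest for each of 26901 gene names of the array. One model with 8 group means was fitted with limma 3.58.1 in R 4.3.3 (23 residual degrees of freedom), with 10 contrasts and Benjamini-Hochberg adjustment over all genes. It was tested on simulated data. Alternatives were quantile normalization, normexp with offset 50, the series matrix, a strict filter or none on dim probes, the mean of probes, slide as a block, leaving out each array and, chosen after seeing the data, leaving out slide 4. The number of arrays limits the precision.

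Genes named are the 6 with the highest and the 6 with the lowest mean change of both wild types, called genes of the other contrasts, the largest and smallest AF2 difference, Mrps18a to Mrps18c and Mrpl12 by role, probes called in opposite directions and genes called lower. The members and lists were chosen with earlier results of these data known. Promoters are those of RefSeq on GRCm38.p6, the first listed for each gene.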

Additional observations from a re-analysis of the deposited data

Results flagged for a closer look

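In 4 group values, 1 array was far from the others by Dixon's test for 4 arrays, of 70 groups tested, where chance marks about 1 in 20, and that array was on slide 4 each time. Mrps18c was at 2.10 on an AF2 KO placebo array, against 2.46 to 2.50 on the others, at 2.61 on an AF2 WT E2 array, against 3.07 to 3.11, and at 2.19 on a MISS KO placebo array, against 2.52 to 2.54. The median level of the 76 genes was 2.31 on a MISS KO placebo array, against 2.50 to 2.52 on the others.

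The E2 response differed between AF2 KO and AF2 WT by the interaction term of the limma model for 9 named genes, at −1.87 for Mrps18b, −1.86 for Mrps7, −1.88 for Mrpl54, −1.80 for Mrpl12, −1.75 for Mrpl20, −1.70 for Mrps2, −1.33 for Mrps18a, −0.68 for Mrps18c and 0.98 for Mrpl34. For Mrps18c the term was −0.35 with quantile normalization and was not called (adjusted p = 0.0824; 0.073 to 0.0824 over the alternatives that ended the call). Between MISS KO and MISS WT it differed for Mrps22, at −0.52. Between MISS WT and AF2 WT it differed for Mrps35 at 0.39, Mrps11 at 0.34 and Mrpl21 at 0.38.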

How the results depend on the processing

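No paired analysis was possible because the labels give no replicate numbers that groups share; the slide served as the block instead. The total numbers of genes called in the E2 contrasts of AF2 WT, MISS KO and MISS WT and in the AF2 difference stayed within 1.5 times of those reported under every alternative, while with quantile normalization those lower were 6, 6 and 9 and those positive in the AF2 difference 3, against 1 each as reported. Their medians moved under 3 scalings (quantile, normexp with quantile, and the series matrix): to 0.43, 0.38 and 0.40 in AF2 WT, 0.49, 0.49 and 0.49 in MISS KO, 0.56, 0.54 and 0.54 in MISS WT, and −0.50, −0.46 and −0.49 for the AF2 difference. Of all 76 genes, 11 in AF2 WT, 8 in MISS KO and 8 in MISS WT had the opposite sign with quantile normalization. Among the genes named for the lowest changes, 3 that were positive turned negative under the same scalings: Mrpl24 to −0.44, −0.42 and −0.42 in AF2 WT, Mrps21 to −0.33, −0.32 and −0.38 in AF2 WT and −0.22, −0.19 and −0.19 in MISS WT, and Mrps33 to −0.26, −0.26 and −0.28 in AF2 WT and −0.39, −0.39 and −0.40 in MISS WT. The AF2 difference of Mrps21 turned to 0.37 with the series matrix. All genes had medians of −0.02 and 0.06 in AF2 WT and MISS WT with quantile normalization, and −0.06 and 0.16 as reported. The cause was not tested.

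Counts that are small moved most. They are not set beside the share of all genes called under the same alternative. Blocking on slide also raised that share where it is given above, so the counts are not read as results about these genes. In AF2 KO, 1 gene was called with each of these scalings and with the mean of probes, and 2 when blocking on slide (Mrps11 and Mrps30, both lower). Blocking on slide gave 5 genes in the MISS difference, 22 in MISS WT minus AF2 WT, 5 in AF2 KO against WT, 1 in MISS KO against WT (Mrps22) and 5 in MISS WT against AF2 WT. The MISS difference had 0 with normexp and with the series matrix. MISS WT minus AF2 WT had 1 with quantile normalization and 5 with the mean of probes. AF2 KO against WT under placebo had 4 with the mean of probes, and MISS WT against AF2 WT had 3 with quantile, with normexp and without slide 4, and 2 with the series matrix. Leaving out 1 array gave 0 to 2 genes in the MISS difference, 1 to 6 in MISS WT minus AF2 WT and 0 to 2 in MISS WT against AF2 WT.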

Other observations

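Several of these genes share a promoter region with a neighbour that runs the other way. Of the 67 genes with a promoter in the table, 25 (37.3%) had a start on the opposite strand within 1000 bases upstream, against 1873 of 12452 tested genes. The partners did not move as one. Of 23 tested, 10 were higher and 7 lower with E2 in AF2 WT (27.6 and 30.0% of all genes). Their median change was 0.10, against 0.79 for the ribosomal protein genes beside them. In MISS WT 12 were higher and 5 lower (35.1 and 27.1% of all genes), with a median of 0.27, against 0.99. These partners include Mrps11 and Mrpl46, which are themselves among the 76 genes. Mrps11 and Mrpl46, whose starts are 42 bases apart, are each other's partner and were both called higher in AF2 WT. Ppp1r10, a regulator of protein phosphatase 1 whose start is 756 bases from that of Mrps18b, changed by 1.79 in AF2 WT, and Psma2, a proteasome subunit beside Mrpl32, by 0.90. Pnpla7, a lysophospholipase beside Mrpl41, changed by −1.71 and Klc4, a kinesin light chain beside Mrpl2, by −1.11, where Mrpl41 changed by 1.16 and Mrpl2 by 0.47. These pairs were chosen after their values were seen, and whether partners share control was not tested.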
